A study of Coryphaena hippurus with 27 samples.

Results

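The miR-23, miR-24 and miR-27 names of mahi-mahi (Coryphaena hippurus, an open-ocean fish) are described here across early development and oil exposure. Members were taken by name, as every name of the 6 deposited count tables that gives the number 23, 24 or 27 with any letter or arm, which made 41 of 1449 names. They comprise 11 miR-23, 13 miR-24 and 17 miR-27 names, and 35 of them stand in all 6 tables. Within them, miR-23-3p, miR-23a-3p, miR-23b and miR-23b-3p were selected on measured counts of these libraries. The oil values of miR-23 are therefore given as a description without p-values, and neither their SE nor their calls count as a test. miR-24 and miR-27 were taken by name alone.

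MicroRNAs (miRNAs) are short RNAs that pair with messenger RNAs and lower their output. In vertebrates the miR-23, miR-27 and miR-24 hairpins lie side by side in paralogous clusters and can be cut from 1 shared transcript. In mice and zebrafish they are best known from blood vessels, where miR-23 and miR-27 bear on sprouting and on endothelial junctions and miR-24 acts in endothelial and smooth muscle cells, and miR-27 also acts in lipid metabolism and cartilage. Each hairpin gives a 3p strand, which is the usual active strand of all 3 miRNAs, and a 5p strand that is mostly degraded. Names without an arm are grouped here with the 3p names.

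Whole embryos or larvae were sampled at 24, 48 and 96 hours post fertilisation (hpf) after exposure to slick oil or source oil of the Deepwater Horizon spill, both labelled 1 g/l, or in control seawater without oil (0 g/l). Slick oil was skimmed from the sea surface and source oil came from the well, and each was mixed at high energy into seawater. Each of the 9 groups had 3 libraries, and each library came from a pool of 30 animals of captive wild-caught broodstock, so the spread is between pools. Exposure was static in beakers, and the labels do not say which pools came from 1 spawn, so p-values measure only the spread between these samples. Library totals lay between 51925 and 93055 counts, with 86977 to 93055 in the oil groups and 63162 to 75228 in controls at 96 hpf. Levels are normalised counts per 70000 on 1 scale over all libraries, ± SD with n = 3, and a level compares libraries, not the amounts of different miRNAs. A log2 fold change is given ± SE, and a name was called when its adjusted p from edgeR's quasi-likelihood test, with Benjamini-Hochberg adjustment over all names tested, was under 0.05. Called members were named partly because their groups did not overlap, so a lack of overlap is no further support for a call.

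The members made up 1.98 to 3.49% of the counts of a library. miR-27b-3p was the member with the highest mean level, at 158 to 229 in the 9 groups, and miR-24 averaged 64.3 to 89.1. miR-23a averaged 35.5 to 129. The tables list 1 small RNA under several names. miR-27a and miR-27a-3p held the same counts in every library, and miR-24, miR-24-3p, miR-24a, miR-24a-3p and miR-24b differed by at most 1 count. The 23 to 26 members tested per oil comparison held 18 to 22 distinct count profiles, and 14 to 19 when profiles within 5% of each other were joined, so counts of names are not counts of miRNAs. The other members stayed below the filter on low counts. These were mostly 5p names such as miR-23a-5p, miR-24b-5p and miR-27c-5p, and miR-23c. The highest of the miR-23 5p names, miR-23b-5p, averaged 2.19 to 10.1 in the 9 groups and passed the filter in no comparison of oil with control.

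The 3p and no-arm miR-23 names that passed the filter averaged more counts in oil than in control libraries at every stage, under both oils. At 24 hpf, miR-23-3p stood at 54.9, 63.8 and 44.2 in slick oil, at 38.4, 49.6 and 46.9 in source oil and at 32.6, 32.5 and 22.8 in controls. No oil library overlapped a control library. The group means were 54.3 ± 9.82 in slick oil, 45.0 ± 5.85 in source oil and 29.3 ± 5.64 in controls, with log2 fold changes of 0.88 ± 0.20 for slick oil and 0.60 ± 0.21 for source oil.

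At 48 hpf, miR-23-3p stood at 42.5, 45.0 and 37.5 in slick oil, at 33.2, 32.6 and 36.2 in source oil and at 18.1, 21.96 and 16.8 in controls. The lowest source oil library was again above the highest control. The log2 fold changes were 1.11 ± 0.22 for slick oil and 0.81 ± 0.21 for source oil.

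At 96 hpf, miR-23-3p stood at 93.9, 102 and 110 in slick oil, at 91.1, 106 and 98.3 in source oil and at 45.1, 27.2 and 46.2 in controls. As raw counts these were 134, 139 and 151 in slick oil, 113, 140 and 135 in source oil and 40, 27 and 49 in controls. Every oil library held at least 113 counts and no control more than 49. The log2 fold changes were 1.42 ± 0.13 for slick oil and 1.36 ± 0.13 for source oil.

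miR-23b ran close to miR-23-3p. Its means at 24 hpf were 83.0 ± 15.5 in slick oil, 63.1 ± 4.34 in source oil and 47.8 ± 7.57 in controls. At 48 hpf it averaged 51.2 ± 3.48 in slick oil, 50.9 ± 3.28 in source oil and 25.9 ± 2.65 in controls, and at 96 hpf 123 ± 12.5 in slick oil, 115 ± 6.24 in source oil and 51.9 ± 10.4 in controls. Under slick oil the log2 fold changes of miR-23b were 0.79 ± 0.17, 0.97 ± 0.20 and 1.29 ± 0.12 at 24, 48 and 96 hpf. Under source oil they were 0.39 ± 0.17, 0.95 ± 0.17 and 1.18 ± 0.11. The first of the source oil values was the lowest of these 6, and no oil library overlapped a control of its stage.

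miR-23a, the miR-23 name with the highest mean, differed from controls by less at 96 hpf than miR-23-3p did. It stood at 130, 131 and 125 in slick oil, at 119, 134 and 119 in source oil and at 79.0, 57.4 and 85.7 in controls of 96 hpf, which is a log2 fold change of 0.85 ± 0.10 for slick oil and 0.79 ± 0.10 for source oil. At 48 hpf it averaged 61.8 ± 5.63 in slick oil, 46.3 ± 6.72 in source oil and 35.5 ± 4.43 in controls. The lowest source oil library at 48 hpf, at 40.1, lay below the highest control, at 40.3. At 24 hpf miR-23a averaged 69.0 ± 13.7 in slick oil, 62.8 ± 1.73 in source oil and 41.4 ± 7.06 in controls.

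**Figure D1:**
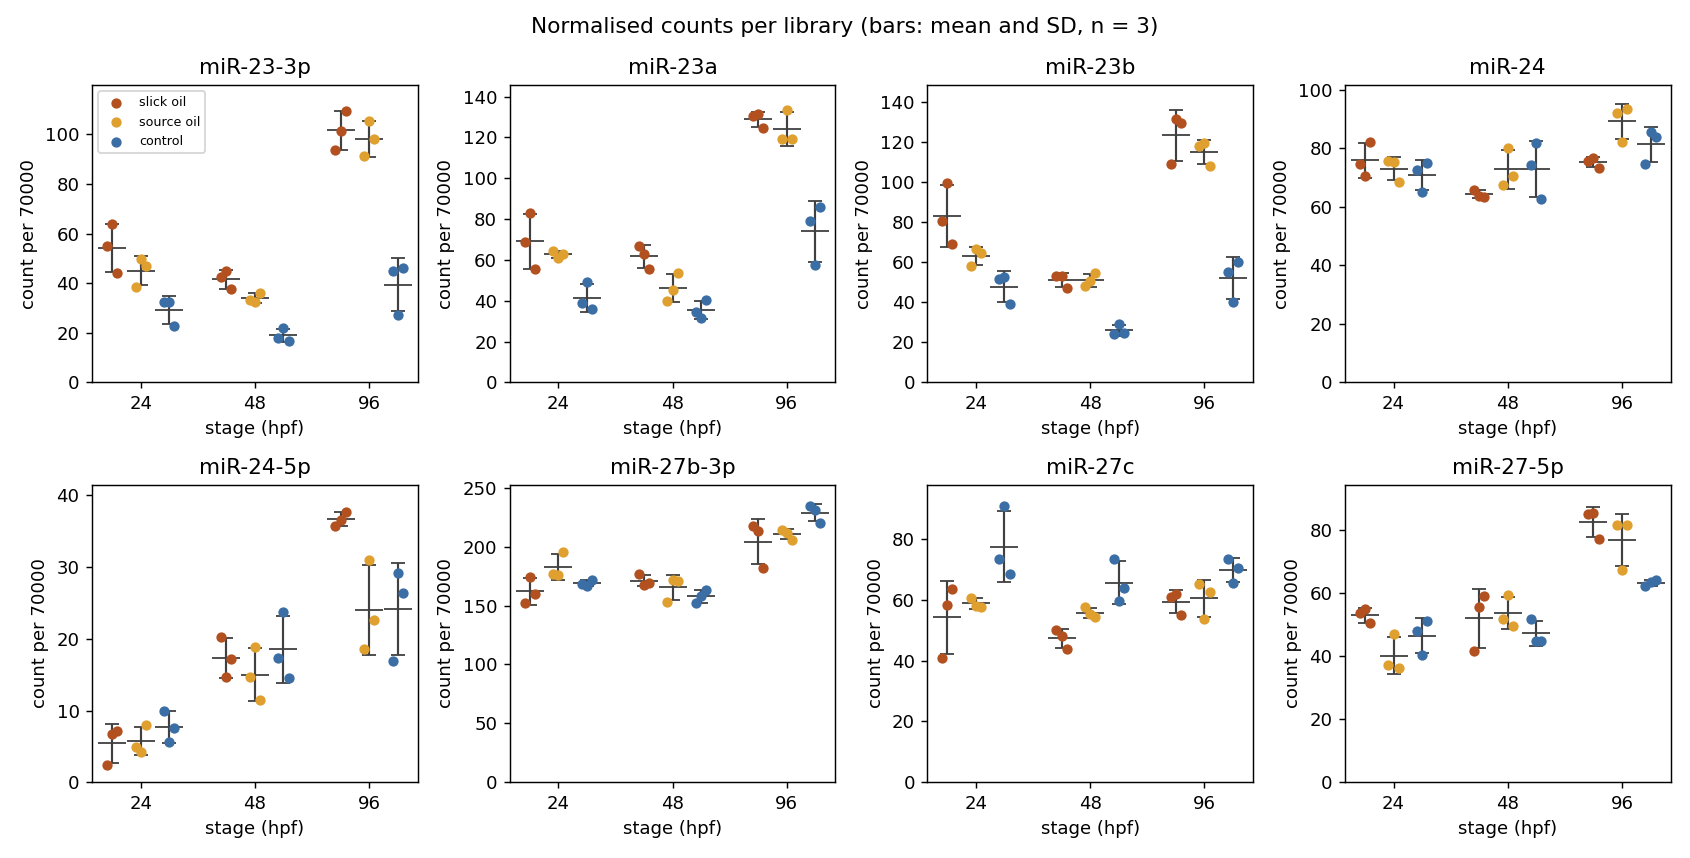
Normalised counts per 70000 (vertical axes, from 0) of 8 members in each of the 27 libraries, by stage in hpf (horizontal axes), with slick oil, source oil and control from left to right; points are libraries and bars the mean and SD of 3. miR-23-3p lies at 91.1 to 110 in the oil libraries of 96 hpf and at 27.2 to 46.2 in controls, while miR-24 averages 64.3 to 89.1 in all 9 groups.

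The tables of a stage share their control libraries, yet 2 leading names carry other control counts in the slick oil table than in the source oil table. For miR-23a-3p at 96 hpf, the 3 controls hold 56, 49 and 67 counts in the slick oil table and 63, 57 and 88 in the source oil table. With these, its log2 fold change was 1.24 ± 0.10 for slick oil and 0.79 ± 0.10 for source oil. miR-23b-3p has 44, 36 and 54 control counts at 96 hpf in the slick oil table and 40, 27 and 49 in the source oil table, where they equal those of miR-23-3p. Its log2 fold change was 1.17 ± 0.12 for slick oil and 1.36 ± 0.13 for source oil. At 48 hpf miR-23b-3p has 25, 28 and 19 control counts in the slick oil table and 25, 31 and 18 in the source oil table. Differences between the oils in miR-23a-3p at 96 hpf and in miR-23b-3p at 48 and 96 hpf therefore include a difference between tables. These names were left out wherever the slick and source oil tables were joined at those stages. Fits of an oil's difference by stage joined only that oil's own tables and kept both names.

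In counts of names, 5 of 5 tested miR-23 names were called higher under slick oil at 24, 48 and 96 hpf, and 3, 3 and 5 of 5 under source oil. Their median log2 fold changes were 0.79, 0.90 and 1.24 for slick oil and 0.60, 0.70 and 1.18 for source oil, against medians between -0.03 and 0.03 over all names tested. Of all names tested, 21.3% were called higher under slick oil at 24 hpf, 19.5% at 48 hpf and 32.5% at 96 hpf. For source oil 14.2%, 9.22% and 28.3% were called higher at these stages. Since the leading names were selected on these libraries and names repeat, calls of miR-23 names are no test and are not set against these shares. In the authors' deposited tables the log2 fold changes of these 5 names ran from 0.609 to 0.718 under slick oil at 24 hpf, 0.668 to 0.868 at 48 hpf and 0.782 to 1.26 at 96 hpf. Under source oil they ran from 0.192 to 0.509, 0.198 to 0.531 and 0.693 to 1.18. By the authors' adjusted p, none of these names was called under source oil at 24 hpf, and only miR-23b at 48 hpf. Under slick oil miR-23b-3p was not called at 24 hpf. All other miR-23 names of the 5 were called there, and all of them in the remaining comparisons.

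miR-24, the third hairpin of the cluster, was called in none of the 6 oil comparisons in its 3p and no-arm names. At 96 hpf miR-24 stood at 75.7, 76.7 and 73.3 in slick oil, at 91.9, 82.2 and 93.2 in source oil and at 74.5, 85.5 and 83.8 in controls. The groups overlapped. Its log2 fold change at 96 hpf was -0.06 ± 0.12 for slick oil (adjusted p = 0.679) and 0.17 ± 0.12 for source oil (adjusted p = 0.229) in edgeR's quasi-likelihood test. Of the 6 tested 3p and no-arm miR-24 names, all but miR-24b-3p held nearly the same counts, so they are not separate results. Over the 6 comparisons, these 6 names had log2 fold changes between -0.26 and 0.17, and none had an unadjusted p under 0.05. DESeq2 called none either. Their lowest adjusted p was 0.226.

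Of 3 tested 5p names of miR-24, 2 rose under slick oil at 96 hpf. In that comparison 32.5% of all names tested were called higher, and 111 of 268 names with a mean count under 50, where these 5p names lie. miR-24-5p stood at 35.8, 36.5 and 37.7 in slick oil, at 18.6, 30.9 and 22.6 in source oil and at 16.9, 29.2 and 26.4 in controls. All 3 slick oil libraries lay above all others, and source oil and control libraries overlapped. The log2 fold change of miR-24-5p was 0.63 ± 0.20 for slick oil (adjusted p = 0.0051) and 0.02 ± 0.22 for source oil (adjusted p = 0.931). miR-24a-5p stood at 22.4, 22.6 and 26.9 in slick oil, at 10.5, 20.4 and 10.9 in source oil and at 6.77, 19.1 and 17.9 in controls. Its slick oil libraries too were above all others, with a log2 fold change of 0.73 ± 0.25 for slick oil (adjusted p = 0.0106). Without control replicate 7, the lowest of the controls, the values were 0.44 for miR-24-5p (adjusted p = 0.076) and 0.41 for miR-24a-5p (adjusted p = 0.192). The call of miR-24a-5p was also lost in DESeq2 (adjusted p = 0.0695), in the authors' deposited table (adjusted p = 0.0726) and without slick oil replicate 9 (adjusted p = 0.0578). The remaining tested 5p name, miR-24a-4-5p, was at 11.99 in slick oil, 10.5 in source oil and 11.5 in controls and was not called. At 48 hpf miR-24a-4-5p averaged 6.37 in slick oil, 10.1 in source oil and 11.4 in controls. Its highest slick oil library at 48 hpf, at 7.51, lay below its lowest control, at 10.4, but it was not called. At 48 hpf miR-24-5p was not called, with -0.12 ± 0.28 for slick oil (adjusted p = 0.762) and -0.35 ± 0.27 for source oil (adjusted p = 0.434). At 24 hpf its counts were below the filter.

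Calls of miR-27 names differed by letter at 24 and 48 hpf, which by itself is no test of a difference between the letters. miR-27b, miR-27b-3p and miR-27-3p, which have the highest miR-27 counts, were called in no oil comparison. At 24 hpf miR-27b-3p stood at 152, 175 and 160 in slick oil, at 177, 176 and 196 in source oil and at 168, 167 and 172 in controls. At 96 hpf it averaged 204 ± 19.2 in slick oil, 211 ± 4.35 in source oil and 229 ± 7.44 in controls, with log2 fold changes of -0.11 ± 0.07 (adjusted p = 0.212) and -0.07 ± 0.07 (adjusted p = 0.429).

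The c names fell under slick oil at 24 and 48 hpf. miR-27c stood at 40.9, 58.2 and 63.7 in slick oil, at 60.7, 58.2 and 57.6 in source oil and at 73.4, 90.8 and 68.4 in controls of 24 hpf. Every oil library was below every control. The log2 fold change of miR-27c at 24 hpf was -0.49 ± 0.17 for slick oil (adjusted p = 0.0395) and -0.40 ± 0.15 for source oil (adjusted p = 0.0682), and that of miR-27c-3p was -0.51 ± 0.16 (adjusted p = 0.03) and -0.41 ± 0.15 (adjusted p = 0.0485).

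At 48 hpf miR-27c stood at 49.9, 48.1 and 44.0 in slick oil, at 57.6, 55.4 and 54.4 in source oil and at 73.4, 59.7 and 63.9 in controls, again without overlap. Slick oil gave -0.48 ± 0.16 (adjusted p = 0.0086) and source oil -0.26 ± 0.14 (adjusted p = 0.225). At 96 hpf the values for miR-27c were -0.18 ± 0.13 for slick oil (adjusted p = 0.262) and -0.16 ± 0.14 for source oil (adjusted p = 0.327).

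miR-27a fell at 48 hpf. It stood at 20.2, 19.9 and 18.2 in slick oil, at 19.5, 18.8 and 21.9 in source oil and at 33.7, 34.3 and 23.5 in controls. The lowest control was above the highest oil library. Its log2 fold change was -0.68 ± 0.24 for slick oil (adjusted p = 0.014) and -0.64 ± 0.21 for source oil (adjusted p = 0.034). At 24 hpf miR-27a gave -0.58 ± 0.26 for slick oil and -0.61 ± 0.28 for source oil, with adjusted p = 0.0924 and 0.122 in edgeR's test. miR-27d-3p averaged 44.6 ± 6.0 in slick oil, 40.9 ± 2.68 in source oil and 54.4 ± 6.21 in controls at 48 hpf, and was called under source oil (-0.44 ± 0.16, adjusted p = 0.044).

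DESeq2 called none of these lower names and neither did the authors' deposited tables, and each call was lost without some single library. The DESeq2 fold changes kept their size. Under slick oil at 48 hpf DESeq2 gave miR-27c -0.49 (adjusted p = 0.0875) and miR-27a -0.68 (adjusted p = 0.119). Cyclic loess, which removes a trend over abundance, ended the slick oil calls of miR-27c at 24 and 48 hpf (adjusted p = 0.0586 and 0.0873). It also ended those of miR-27c-3p under slick oil at 48 hpf and source oil at 24 hpf (adjusted p = 0.0904 and 0.104). The call of miR-27d-3p was lost too (adjusted p = 0.125). Calls of miR-27a, and of miR-27c-3p under slick oil at 24 hpf, were kept by cyclic loess. Averaging the closely agreeing replicates of 24 hpf (slick oil replicates 1 and 2, source oil replicates 1 and 3, which differed by less than sampling noise while the other pairs of their group did not) also ended the calls of miR-27c and miR-27c-3p at 24 hpf, with adjusted p = 0.0575 to 0.0862. The 10 tested 3p and no-arm miR-27 names had a median log2 fold change of -0.37 for slick and -0.39 for source oil at 24 hpf, -0.33 and -0.32 at 48 hpf, and -0.12 and -0.13 at 96 hpf.

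The 5p strand of miR-27 rose at 96 hpf. miR-27-5p stood at 84.8, 85.4 and 76.9 in slick oil, at 81.4, 67.2 and 81.5 in source oil and at 62.0, 63.4 and 64.1 in controls. All oil libraries lay above all controls. The log2 fold change was 0.44 ± 0.12 for slick oil (adjusted p = 0.0019) and 0.32 ± 0.13 for source oil (adjusted p = 0.0355), and miR-27b-5p held the same counts at this stage. The slick oil call of miR-27-5p held under all 15 alternatives, with adjusted p between 0.000172 and 0.0346. The source oil call was lost under 10 of 15. At 96 hpf fold changes moved with abundance in both comparisons: names with a mean count under 50 had a median of 0.28 for slick and 0.28 for source oil, and names of 200 or more had -0.23 and -0.22. With that trend removed by cyclic loess, miR-27-5p was at 0.20 under source oil (adjusted p = 0.228) and under slick oil miR-24-5p at 0.43 (adjusted p = 0.0594) and miR-24a-5p at 0.42 (adjusted p = 0.145).

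**Figure D2:**
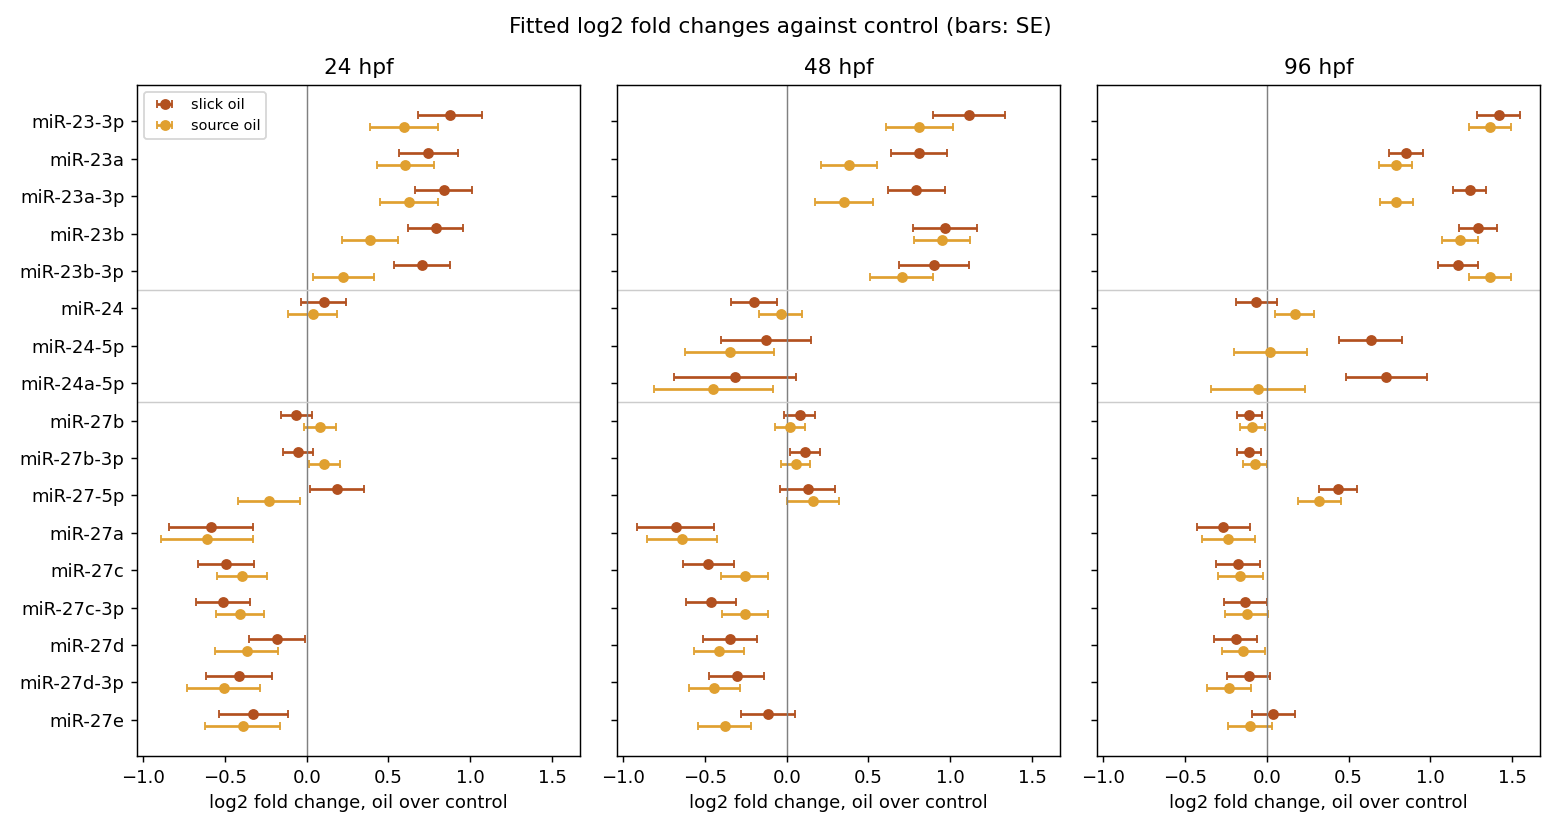
Fitted log2 fold change of oil over control (horizontal axes) for 17 members, with 1 panel per stage; dark points are slick oil, light points source oil and bars the SE. The 5 miR-23 names lie right of 0 at every stage, and at 96 hpf miR-27-5p is at 0.44 and 0.32 while miR-27b is at -0.11 and -0.09.

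Over all 41 members and both directions, 5 of 23 tested members were called higher and 2 lower under slick oil at 24 hpf, where 21.3% of all names tested were higher and 17.4% lower. At that stage source oil had 3 higher of 23 and 1 lower, and of all names 14.2% were called higher and 12.2% lower there. Slick oil at 48 hpf had 5 of 26 higher and 4 lower (19.5% of all names higher and 21.3% lower), and source oil had 3 higher and 3 lower (9.22% and 10.1%). At 96 hpf slick oil had 9 of 26 higher and none lower, and source oil had 7 of 26 higher and none lower, where 32.5% of all names were higher and 27.6% lower for slick oil and 28.3% higher and 19.7% lower for source oil. These higher counts include the miR-23 names, selected on these libraries, so nothing is read from them against the shares. No miR-24 or miR-27 name was called higher at 24 or 48 hpf, and all lower calls were miR-27 names. At 96 hpf, 2 miR-24 and 2 miR-27 names were higher under slick oil, and 0 and 2 under source oil. For miR-27 alone, no name was called lower at 96 hpf by edgeR under either oil, and the 2 names with an unadjusted p under 0.05 in each comparison were the 5p names that rose. With the trend over abundance removed by cyclic loess, miR-27a was called lower at 96 hpf, by -0.42 with slick oil (adjusted p = 0.0242) and by -0.45 with source oil (adjusted p = 0.0197), and so was miR-27d-3p with source oil, by -0.37 (adjusted p = 0.0224).

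Ratios within a library need no scaling and set the strands and hairpins against each other. They do not remove the trend of fold changes over abundance at 96 hpf. There, names with a mean count of 50 to 100 had a median of 0.116 for slick and 0.144 for source oil. Names of 200 or more had -0.235 and -0.219. The part of this trend in the ratios was not tested. The ratio of miR-23a to miR-27b counts was 0.451 ± 0.078 in slick oil, 0.37 ± 0.024 in source oil and 0.259 ± 0.053 in controls at 24 hpf. At 48 hpf it was 0.39 ± 0.027 in slick oil, 0.302 ± 0.031 in source oil and 0.237 ± 0.028 in controls, and at 96 hpf 0.675 ± 0.043 in slick oil, 0.634 ± 0.04 in source oil and 0.347 ± 0.084 in controls. No oil library of any stage overlapped a control of its stage in this ratio. The ratio of miR-23a to miR-24 did overlap for slick oil at 24 hpf (lowest 0.675, highest control 0.759). It also overlapped for source oil at 48 hpf (lowest 0.568, highest control 0.643), and in no other comparison of oil with control. Since miR-23 names led the choice of members, these ratios have no test.

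The ratio of miR-27-5p to miR-27-3p at 96 hpf was 0.416, 0.43 and 0.447 in slick oil, 0.409, 0.344 and 0.427 in source oil and 0.282, 0.289 and 0.318 in controls. The oil libraries did not overlap the controls. The exact two-sided permutation test gave p = 0.1 for each oil, the smallest that 3 against 3 allows. The ratio of miR-24-5p to miR-24-3p was 0.472, 0.476 and 0.515 in slick oil, 0.202, 0.38 and 0.242 in source oil and 0.227, 0.345 and 0.315 in controls of 96 hpf. Slick oil libraries were above all others (exact permutation p = 0.1), and source oil overlapped controls (p = 0.8). For the ratio of miR-27c to miR-27b at 24 hpf, the exact permutation test gave p = 0.2 for slick oil and 0.1 for source oil. At 48 hpf the exact permutation test of this ratio gave p = 0.1 for slick oil and 0.3 for source oil. The ratio overlapped controls for slick oil at 24 hpf and source oil at 48 hpf, but not in the other comparisons of these stages. A split of miR-27 by letter was therefore not shown. Of 24 such tests over 4 ratios, none had a Benjamini-Hochberg adjusted p below 0.343. At 24 hpf the strand ratio of miR-27 was 0.348 ± 0.025 in slick oil, 0.236 ± 0.038 in source oil and 0.289 ± 0.025 in controls, on opposite sides of the controls (exact permutation p = 0.1 for slick oil and 0.2 for source oil).

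**Figure D3:**
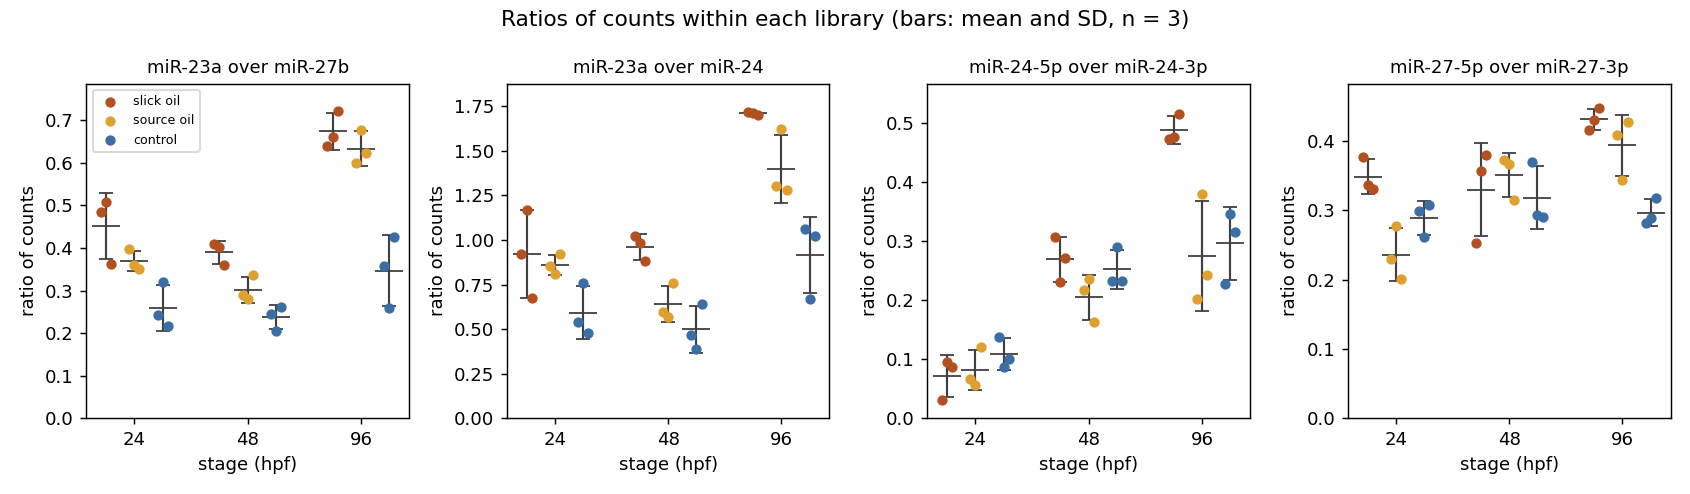
Ratio of raw counts of 2 members within each library (vertical axes, from 0) by stage in hpf, with slick oil, source oil and control from left to right; points are libraries and bars the mean and SD of 3. The ratio of miR-23a to miR-27b is 0.599 to 0.723 in oil libraries of 96 hpf and 0.258 to 0.425 in controls.

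The 2 oils were compared directly in a joint fit of each stage. At 24 hpf, 0 of 23 members were called in edgeR's test, where 1.16% of all names were higher in slick oil and 0% lower, and 4 members had an unadjusted p under 0.05, of which 2 are miR-23b names and nothing is read from those. At 48 hpf 0 of 26 were called, with 4.87% of all names higher and 0.628% lower, and the 2 members with an unadjusted p under 0.05 are miR-23a names, from which nothing is read. DESeq2 called none at either stage. For miR-23a the difference at 48 hpf was 0.44. At 96 hpf the 3 miR-23 names that could be joined had differences of 0.09 to 0.14. At 96 hpf 2 of 24 members were higher in slick oil, against 2.24% of all names higher and 2.39% lower. They were miR-24-5p, by 0.64 ± 0.18 with a 95% interval of 0.29 to 1.00 (adjusted p = 0.0236), and miR-24a-5p, by 0.82 ± 0.23 (adjusted p = 0.025). Both calls were lost in DESeq2 (adjusted p = 0.22 and 0.207) and without any of 4 of the 6 oil libraries. miR-24 itself was not called, at -0.20 with an interval of -0.42 to 0.02 (adjusted p = 0.34).

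**Figure D4:**
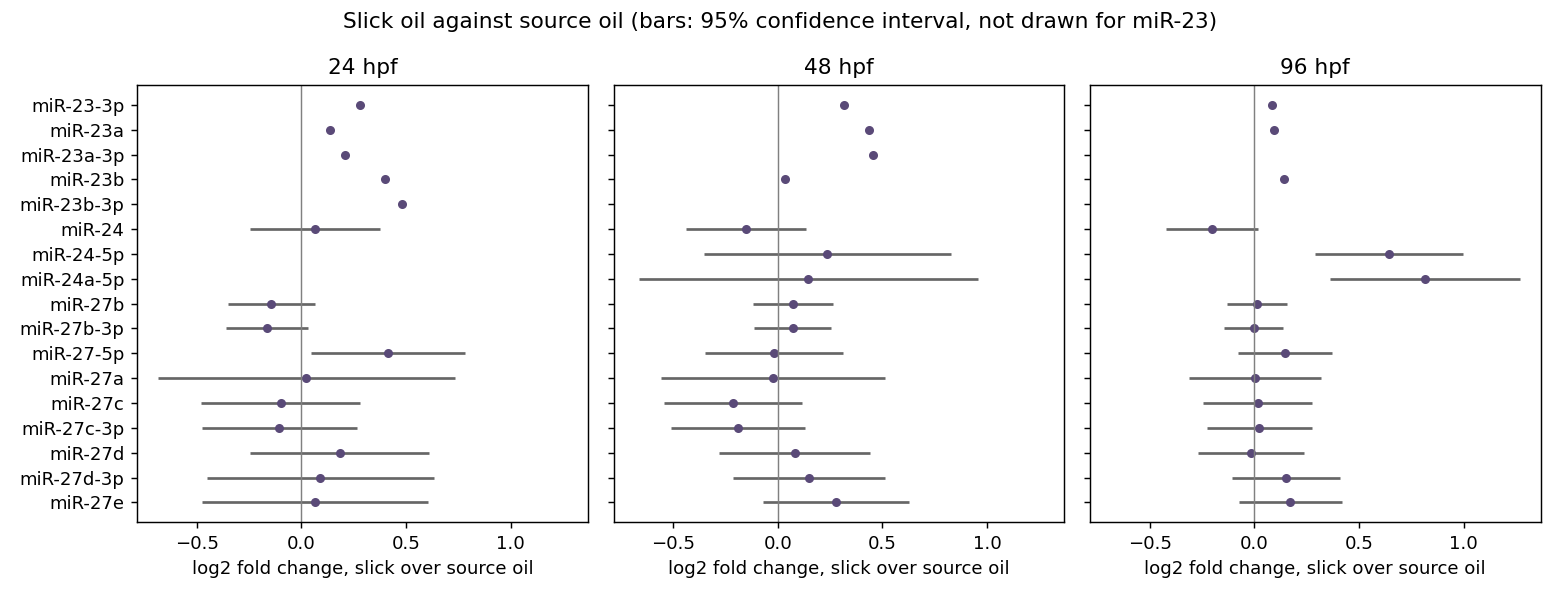
Log2 fold change of slick over source oil (horizontal axes) for 17 members, with 1 panel per stage; points are fitted values and bars the 95% confidence interval, miR-23 names have no bars, and a name without a point was not tested. At 96 hpf miR-24-5p is at 0.64 and miR-24a-5p at 0.82, and the other intervals drawn at that stage include 0.

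In untreated development the members followed separate courses. miR-23b averaged 47.8 ± 7.57 at 24 hpf, 25.9 ± 2.65 at 48 hpf and 51.9 ± 10.4 at 96 hpf in controls. Its log2 difference was -0.91 ± 0.19 from 24 to 48 hpf and 1.053 ± 0.184 from 48 to 96 hpf. For miR-23-3p these were -0.65 ± 0.24 and 1.10 ± 0.23, and for miR-23a -0.25 ± 0.19 and 1.13 ± 0.16. Since the leading miR-23 names were selected on counts that include these controls, they are given without a p. The oil groups of each stage stood above these controls, and miR-23-3p averaged 41.7 ± 3.78 in slick oil at 48 hpf, while controls at 96 hpf averaged 39.5 ± 10.7.

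miR-24 stayed at 70.8 ± 5.17, 72.9 ± 9.56 and 81.3 ± 5.98 in controls of 24, 48 and 96 hpf and was not called (adjusted p = 0.919 and 0.172). miR-24-5p averaged 7.72 ± 2.18, 18.5 ± 4.7 and 24.2 ± 6.43 at these stages. It rose in the first step by 1.21 ± 0.31 (adjusted p = 0.0029), and miR-24a-5p rose by 1.62 ± 0.41 (adjusted p = 0.0025). For miR-27, miR-27d-3p rose from 24 to 48 hpf by 0.66 ± 0.15 (adjusted p = 0.00081) and miR-27e by 0.70 ± 0.15 (adjusted p = 0.00068). From 48 to 96 hpf 10 of 12 miR-27 names rose, among them miR-27b-3p by 0.60 ± 0.07 (adjusted p = 1.24e-07) and miR-27a by 0.73 ± 0.17 (adjusted p = 0.001). In that step DESeq2 did not call miR-27-5p, miR-27b-5p, miR-27d, miR-27d-3p or miR-27e (adjusted p = 0.0681 to 0.0991). The edgeR calls of miR-27d, miR-27d-3p and miR-27e were also lost without control replicate 6 (adjusted p = 0.0643 to 0.0965). miR-27c and miR-27c-3p were not called in either step, though cyclic loess called both lower from 24 to 48 hpf, by -0.39 for miR-27c (adjusted p = 0.0113) and by -0.39 for miR-27c-3p (adjusted p = 0.0111). In all, 4 of 24 tested members were higher and 2 lower at 48 than at 24 hpf, where 23.3% of all names were higher and 22% lower. At 96 against 48 hpf 13 of 24 were higher and none lower, where 29.6% of all names were higher and 29.1% lower. Both counts include the miR-23 names.

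Whether the oil difference itself changed with stage was tested over both treatment-by-stage terms. Under slick oil 0 of 26 members were called in edgeR's test, against 37.5% of all names, with 2 members at an unadjusted p under 0.05. Under source oil 2 of 27 were called, against 22% of all names. Both were miR-23b names, among the names selected on counts of these libraries, and their source oil differences are given above without a p. Neither DESeq2 fit called a member.

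Other miRNAs known from vessels were counted by a list of miR-126, miR-143, miR-145, miR-221, miR-222, miR-130, miR-132, miR-10, miR-210 and miR-218. Under slick oil 16 of 62 tested names were higher and 5 lower at 24 hpf, 17 of 62 higher and 7 lower at 48 hpf, and 21 of 66 higher and 19 lower at 96 hpf. Under source oil the numbers were 7 of 58 higher and 0 lower, 1 of 59 higher and 5 lower, and 19 of 65 higher and 11 lower. These stand beside the shares of all names given above, which at 96 hpf were 32.5% higher and 27.6% lower for slick oil and 28.3% and 19.7% for source oil. At 96 hpf the list's median log2 fold change was 0.11 for slick and 0.18 for source oil. miR-132, which is induced in growing endothelium and in neurons, rose under slick oil by 2.0 ± 0.21 at 96 hpf (adjusted p = 4.22e-10) and under source oil by 1.72 ± 0.22 (adjusted p = 3.67e-10). miR-222, known from endothelium and smooth muscle, fell at 96 hpf by 0.41 ± 0.07 under slick oil (adjusted p = 4.2e-06) and by 0.39 ± 0.07 under source oil (adjusted p = 3.03e-06).

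The endothelial marker miR-126-3p averaged 274 to 322 in all 9 groups and fell under slick oil at 96 hpf by 0.18 ± 0.06 (adjusted p = 0.0097). It was not called under source oil at that stage (-0.10 ± 0.06, adjusted p = 0.203). In the highest abundance class, from 200 counts upward, the median log2 fold change at 96 hpf was -0.235 for slick and -0.219 for source oil. Under slick oil 74 of the 123 names in that class were called lower. The part of this trend in the fall of miR-126-3p was not tested. The no-arm name miR-126 averaged 231 in slick oil, 255 in source oil and 240 in controls at 96 hpf, and it rose at 48 hpf by 0.25 ± 0.08 under slick oil (adjusted p = 0.0085) and by 0.28 ± 0.07 under source oil (adjusted p = 0.006). The smooth muscle marker miR-145 fell under slick oil at 96 hpf by 0.58 ± 0.10 (adjusted p = 7.13e-06), and miR-143 fell by 0.19 ± 0.08 (adjusted p = 0.0459). Under source oil at 96 hpf miR-145 had -0.20 ± 0.11 (adjusted p = 0.121) and miR-143 -0.13 ± 0.09 (adjusted p = 0.199). The leukocyte marker miR-142-3p averaged 18.4 in slick oil, 28.3 in source oil and 38.4 in controls at 96 hpf, while miR-223 averaged 11.7, 9.37 and 5.11 in these groups. Of the red blood cell markers, miR-144 averaged 34.9 in slick oil, 78.1 in source oil and 89 in controls, and miR-451 averaged 41.1, 29.8 and 19. At 96 hpf the 2 markers of each blood class lay on opposite sides of the controls. At the earlier stages both red blood cell markers were below controls under slick oil. miR-144 was at 12.1 in slick oil and 18.4 in controls at 24 hpf, and at 92.9 and 204 at 48 hpf. miR-451 was at 1.81 and 4.59 at 24 hpf, only a few counts per library, and at 10.2 and 12.9 at 48 hpf. No test is given for these blood markers. Under source oil the red blood cell markers lay on opposite sides of the controls at both of these stages. In source oil at 24 hpf miR-144 was at 21.8, above controls, and miR-451 at 1.75, below them. At 48 hpf miR-144 was below controls in source oil and miR-451, at 14.2, above them. At 24 hpf miR-142-3p averaged 15.9 in slick oil, 13.4 in source oil and 31.5 in controls, and at 48 hpf 17.3, 22.7 and 55.7. The other leukocyte marker, miR-223, was not lowered in the same way, but its counts were low in all 9 groups, which limits what it can show. It averaged 9.43 in slick oil, 9.58 in source oil and 9.77 in controls at 24 hpf, and 6.37, 5.5 and 5.43 at 48 hpf. The neuronal markers miR-124 and miR-137 were lower in oil than in controls at 24 hpf. There miR-124 was at 24.6 in slick oil, 27.3 in source oil and 48.8 in controls, and miR-137 at 9.15, 9.2 and 19. The brain marker miR-9 was at 416, 437 and 468 in these groups. At 96 hpf miR-9 was at 503 in slick oil, 539 in source oil and 710 in controls. At that stage miR-124 was at 108, 115 and 112, and miR-137 at 35.2, 40.8 and 37.5. miR-430b, a miRNA of the early embryo, stood at 58.2 in slick oil, 59.5 in source oil and 38 in controls of 96 hpf, and miR-430a at 109, 111 and 128. The part of these shifts in the miR-23, miR-24 and miR-27 values was not tested, and in whole animals fewer cells of a type and less RNA per cell cannot be told apart.

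Over the 27 libraries, miRNAs outside the family whose levels followed those of miR-23a most closely were miR-132b (Pearson's r = 0.909), miR-103a (0.9) and miR-107 (0.9), on log2(normalised count + 1). The libraries share stages and treatments, so these values describe a common course over the 9 groups. miR-24 had no counterpart as close, and its highest was miR-199b-2-5p (r = 0.645). For miR-27b-3p it was miR-124b-3p (r = 0.826). Among the members, miR-23-3p and miR-23b had r = 0.979, miR-23a and miR-27b 0.663, miR-23a and miR-24 0.379, and miR-23-3p and miR-27c -0.244. miR-24-5p had r = 0.923 with miR-27e and 0.284 with miR-24.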

How the data were processed

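Small RNA libraries of whole animals were sequenced by the study. The deposited files hold whole-number counts per miRNA name, unscaled, in 6 tables of 3 oil and 3 control libraries. Per the file headers, 6 more tables hold log2 fold changes and p-values that the authors computed, with DESeq2 per the submitters' processing notes. No source used here names its version, the aligner, the miRNA reference or how reads were counted. Blank lines (6813, in the slick oil table of 24 hpf) were dropped.

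Members and lists were chosen with earlier results of these data known. Counts were fitted in R 4.3.3 with edgeR 4.0.16: filterByExpr (min.count of 10), TMM scaling, a quasi-likelihood F test, two-sided, and Benjamini-Hochberg adjustment over all names tested (threshold 0.05). Each oil group was compared with its stage's controls within its own table. Fits between the oils and between control stages used names with equal control counts, which left out 38, 28 and 38 names at 24, 48 and 96 hpf. Fits of an oil's difference by stage used all names shared by that oil's tables, with the control counts of those tables. Normalised levels use 913 such names over all 27 libraries, per 70000, and controls of names outside them come from the slick oil table. Standard errors and intervals were computed from the p-value of the test, which edgeR keeps from falling below that of Poisson counting.

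Alternatives were DESeq2 1.42.0, DESeq2 size factors, library size alone, cyclic loess, the replicate number as a block, identical names merged, no filter, a mean count of at least 50, the 9 libraries of a stage fitted jointly, the tables of the authors, and each library left out in turn. Averaging closely agreeing replicates was added after seeing the data. Named in the text are the 4 leading names, the highest name of each number and arm, called members whose groups do not overlap (at most 5 highest and 5 lowest per comparison), members whose direction departs from others of their number, and, chosen after their values were seen, miR-24a-4-5p and the untested names. Replicate numbers counted as pairs only where all 3 same-numbered pairs correlated above 0.1, which held for slick oil against control at 96 hpf (0.14 to 0.175). The main fit of that comparison was unpaired all the same, as were all other main fits. The replicate number entered only as the block among the alternatives. Only 3 libraries per group and low counts limit the precision.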

Additional observations from a re-analysis of the deposited data

Results flagged for a closer look

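At 96 hpf slick and source oil differed from each other in miR-24-5p, by a log2 fold change of 0.64 (adjusted p = 0.0236), and in miR-24a-5p, by 0.82 (adjusted p = 0.025), in edgeR's joint test of both oils. All 3 slick oil libraries were above all 3 source oil libraries in both names. DESeq2 called neither (adjusted p = 0.22 and 0.207).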

How the results depend on the processing

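The fold changes of the 5 miR-23 names under oil were above 0 in all alternatives run for single names, from 0.15 (miR-23b-3p, source oil, 24 hpf) to 1.55 (miR-23-3p, slick oil, 96 hpf), and no named value reversed with a call. Since the leading miR-23 names were selected on these libraries, which the alternatives reuse, their shared sign is no test. Counts of called members moved more, and the cause was not tested unless given. Under DESeq2 they were 0 for source oil at 24 hpf, 5 for slick oil and 1 for source oil at 48 hpf, 8 from 48 to 96 hpf in controls, 0 between the oils at 96 hpf and 0 for source oil by stage. The authors' tables gave 4 and 0 for slick and source oil at 24 hpf, and 5 and 1 at 48 hpf. A mean count of at least 50, which tests fewer names, gave 3 and 1 for slick and source oil at 24 hpf, 2 and 1 at 48 hpf, 2 from 24 to 48 hpf in controls, 0 between the oils at 96 hpf and 1 for slick oil by stage. Cyclic loess gave 2 and 1 between the oils at 48 and 96 hpf and 0 for source oil by stage. Merging identical names gave 4 for source oil at 96 hpf and 1 for slick oil by stage. Library size alone gave 3 for slick oil by stage, no filter gave 3 for source oil at 48 hpf, and averaged replicates gave 2 for source oil at 24 hpf. With the replicate block, source oil at 24 hpf had 2 called members, and the block changed no other count by over 1.5 times. In that comparison the same-numbered pairs correlated at -0.0666 to 0.25, so not all 3 were above the limit of 0.1. What libraries of 1 number share is not given in the labels.

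Leaving out 1 library gave, for slick oil against control, 4 to 7 called members at 24 hpf, 5 to 9 at 48 hpf and 7 to 10 at 96 hpf. For source oil it gave 0 to 3, 2 to 7 and 5 to 7, and 0 at 24 hpf without control replicate 1 or 3. In controls it gave 5 to 7 and 10 to 15, between the oils 0, 0 and 0 to 2, and by stage 0 to 3 for slick and 1 to 3 for source oil. Of all names tested, DESeq2 called 22.4% for slick and 10% for source oil at 24 hpf, 22.4% and 6.91% at 48 hpf and 48.4% and 30.6% at 96 hpf, where edgeR called 38.6% and 26.3%, 40.8% and 19.4%, and 60.1% and 48%. At 24 hpf the share of calls that were higher was 43.9% for slick and 43.6% for source oil when scaled by library size alone, against 55% and 53.8% with TMM.

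Precision is limited by 3 pools per group, and most 5p names were too low to test. Most replicate pairs differed by less than counting noise, and what 1 count stands for is not given in the sources used here.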
